A study of Mus musculus with 16 samples.

Results

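The Sox factors Sox2, Sox3, Sox9, Sox21, Sox4 and Sox11 were followed as transcription factors of pituitary progenitors, through every array probe that the platform annotation names for them. Of the 6 genes, 5 had a probe, 8 probes in all among 25697 on the array. No probe used here was named Sox11. RNA came from pituitary glands of mouse embryos at embryonic day 17.5, on a mixed C57/BL6 and 129Ola background, and each sample was hybridised to 1 Illumina bead array. The mutant group was 6 samples with the genotype Insm1 -/-. The control group was 10 samples with the genotype Insm1 +/-, so the controls also lacked 1 copy of Insm1, a zinc finger factor of developing neuroendocrine cells. The comparison asks which transcripts depend on Insm1. Whether each sample held 1 gland or several is not stated in the labels, and the p-values reflect the spread among samples, part of which may be technical.

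Sox proteins bind DNA through an HMG box and fall into groups by its sequence. Sox2 and Sox3 belong to group B1, whose members activate transcription and keep progenitor cells undifferentiated. Sox21, of group B2, mostly represses transcription and can oppose the B1 factors. Sox9 belongs to group E and Sox4 and Sox11 to group C, which acts in cells that have begun to differentiate. In the pituitary, Sox2 marks the progenitors that line the cleft between the lobes, and Sox9 joins it there later in development. Sox3 is needed for the gland to form normally. Sox2 and Sox9 are also made by glia, including the pituicytes of the posterior lobe, so neither marks progenitors alone.

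Sox21, Sox2 and Sox9 were higher in the mutants, Sox4 did not pass the test, and Sox3 was not above background. Sox21 was 3.16-fold higher, the 29th largest rise of 9682 genes tested. Sox2 was 1.81-fold higher by 1 probe (ILMN_2656102), and by the other (ILMN_1248711) was called higher only once the slide was taken into account. Sox9 was 1.41-fold higher. Levels below are log2 intensities after background correction and quantile normalisation, and changes are mutant minus control. A gene was called at a Benjamini-Hochberg adjusted p under 0.05 in the limma fit over all 13813 probes detected on at least 6 arrays. A whole gland is a mix of cells, so more cells of a type and more RNA per cell cannot be told apart here.

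The 250 bases before the annotated start of the detected members are shown for Sox21 and Sox2, which were called, and for Sox4, which was not, so that the promoters can be set side by side. The sequences are from RefSeq on build GRCm38.p6. The table used here matched 4 of the 6 genes, Sox2, Sox4, Sox11 and Sox21, and Sox9, though called, is named only. Sox21 lies on chr14:118237031-118237280 (minus strand), Sox2 on chr3:34649745-34649994 (plus strand) and Sox4 on chr13:28953700-28953949 (minus strand). Each is written from 5′ to 3′ on the strand of its gene. Capitals mark matches, on either strand, to the CCAAT box (CCAAT), the GC box (GGGCGG) or the core site of the Notch effector RBPJ (TGGGAA).
Sox21: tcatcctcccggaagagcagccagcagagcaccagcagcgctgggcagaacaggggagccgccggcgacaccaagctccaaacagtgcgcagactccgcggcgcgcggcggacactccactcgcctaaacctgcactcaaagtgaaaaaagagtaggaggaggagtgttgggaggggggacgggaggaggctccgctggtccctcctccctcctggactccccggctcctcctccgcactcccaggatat
Sox2: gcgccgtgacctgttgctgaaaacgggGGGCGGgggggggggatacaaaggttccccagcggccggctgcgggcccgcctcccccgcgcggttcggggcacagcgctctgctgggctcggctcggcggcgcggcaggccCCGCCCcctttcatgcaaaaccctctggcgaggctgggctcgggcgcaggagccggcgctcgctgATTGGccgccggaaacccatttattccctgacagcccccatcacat
Sox4: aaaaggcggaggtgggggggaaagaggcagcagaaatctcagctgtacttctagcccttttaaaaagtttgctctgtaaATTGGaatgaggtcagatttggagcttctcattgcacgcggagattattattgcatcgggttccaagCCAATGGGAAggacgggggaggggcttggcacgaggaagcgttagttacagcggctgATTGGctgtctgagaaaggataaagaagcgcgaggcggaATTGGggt
The Sox21 window held 0 matches to any of 5 motifs, the others being the TATA box (TATAAA) and the core site of Sox proteins (ACAAT), which none of the 3 windows held. The Sox2 window held 1 CCAAT box and 2 GC boxes. The Sox4 window held 4 CCAAT boxes and 1 RBPJ core, and that core shares 1 base with a CCAAT box. Shares were taken over 32851 promoter windows of this length, with 1 chromosome left out. Of these, 33.8% held a CCAAT box, 32.7% a GC box, 21.6% an RBPJ core, 27.7% a Sox core and 12.4% a TATA box. GC content was 72.0% in Sox2, 65.2% in Sox21 and 50.8% in Sox4, against a median of 52.4% over those windows. A match is a run of letters and was not tested as a binding site.

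Array depth was similar in both groups, with 12928 to 13671 probes above background (detection p under 0.01) in mutants and 12892 to 14156 in controls. The arrays lay on 2 slides, slide 1 with 4 mutants and 4 controls and slide 2 with 2 mutants and 6 controls. Control 10 stood apart from the other controls. The skeletal muscle gene Myl1, a myosin light chain, read 13.08 there and 8.68 to 9.16 in the others, and Trp63, an epithelial factor, 7.26 against at most 5.58. It was also the only one of the 16 samples with both Xist, made from the inactive X chromosome (10.40 and 9.79 by its probes), and the Y-linked Eif2s3y (11.05) above background. Results are therefore also given within slides and without control 10. The Insm1 probe read 11.43 to 12.04 in mutants and 11.16 to 11.66 in controls. It was called higher in mutants, a change of 0.36 (SE 0.10, limma adjusted p = 0.0134). The call was kept in all 16 fits that left out 1 sample. It was lost within slide 1 (0.27, limma adjusted p = 0.249) and with median scaling (0.34, limma adjusted p = 0.0573). Whether this probe lies in the altered part of the gene is not known here, so its level does not check the labels. All 6 pituitary hormone genes tested were lower in mutants, although Lhb was above background in 0 mutants and Prl in 2, so that both passed the filter through the controls. Over all genes tested the median change was 0.033, and 29.9% were called, 15.9% higher and 14.0% lower.

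Sox21 separated the genotypes completely. Its detected probe (ILMN_1254295) ranged from 7.55 to 8.01 in the 6 mutants, with a median of 7.73, and from 5.54 to 6.71 in the 10 controls, with a median of 6.13. The lowest mutant lay above the highest control, control 10, which held for 3.94% of all genes tested. Mutants averaged 7.74 ± 0.17 (SD, n = 6) against 6.07 ± 0.32 (SD, n = 10) for controls, a change of 1.66 (SE 0.13, limma adjusted p = 4.73e-08). The probe was above background on all 16 arrays, although its raw signal was low, from 109 to 345. The change was 1.72 on slide 1, 1.59 on slide 2 and 1.66 with the slide as a block. Without control 10 it was 1.73. With no background correction it was 1.11, and in the deposited normalised values 1.95, with the call kept in both.

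The other 2 Sox21 probes were above background on 0 of 16 arrays, so no fold is given for them. ILMN_3163306 read 4.67 to 4.94 in mutants and 4.41 to 4.76 in controls, and 4 mutants lay above every control. ILMN_2721489 read 4.38 to 4.61 in mutants and 4.32 to 4.53 in controls. The Sox21 result therefore rests on 1 probe.

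**Figure D1:**
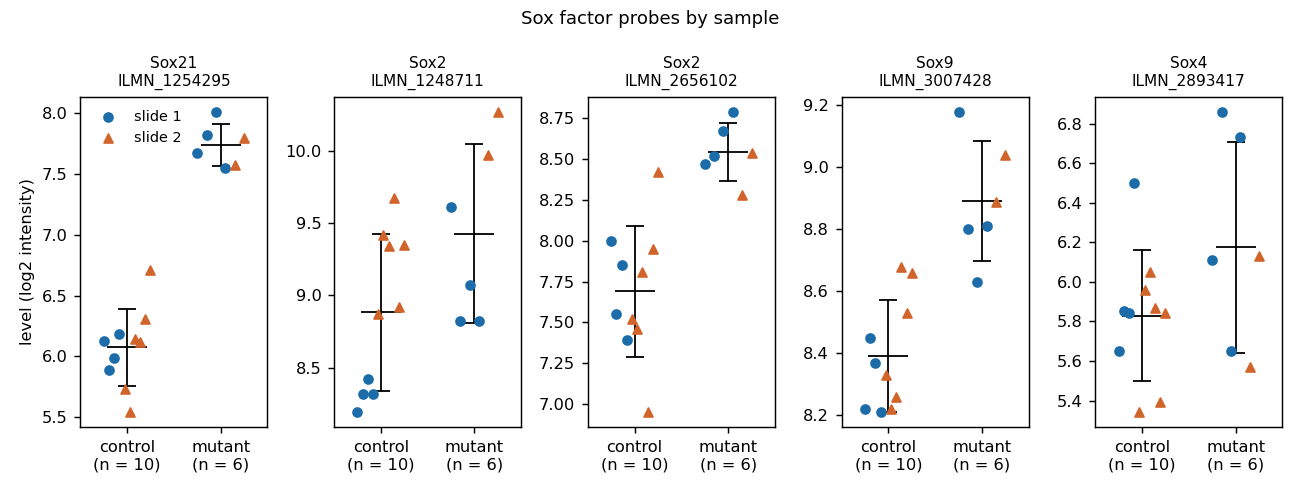
Level of each tested Sox probe (log2 intensity, vertical axis, own scale per panel) in every control and mutant sample, with symbols by slide; horizontal bars are means and whiskers are SD. The 6 Sox21 mutants sit between 7.55 and 8.01, all above the controls, and the first Sox2 panel shows slide 2 above slide 1 within each genotype.

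Sox2 was measured by 2 probes, both above background on all arrays, and they differed in how they behaved across slides. The brighter probe (ILMN_1248711) ranged from 8.82 to 10.27 in mutants (median 9.34) and from 8.19 to 9.67 in controls (median 8.89). Only the 2 mutants of slide 2 lay above every control. The change was 0.54 (SE 0.27, limma adjusted p = 0.141), with a 95% interval of -0.014 to 1.10, and was not called.

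The brighter probe's level differed by slide. On slide 1 it averaged 9.08 ± 0.37 (SD, n = 4) for mutants against 8.31 ± 0.095 (SD, n = 4) for controls. On slide 2 it averaged 10.12 in the 2 mutants, which read 9.97 and 10.27, and 9.26 ± 0.31 (SD, n = 6) in controls. Controls read 8.19 to 8.42 on slide 1 and 8.87 to 9.67 on slide 2, and the mutants of each slide lay above them. How often other probes separate in this way within a slide was not counted, and slide 2 held 2 mutants. With genotype in the fit, slide 2 was higher than slide 1 by 0.98 (SE 0.13, limma adjusted p = 0.000162), the 32nd largest slide rise of 13813 probes, of which 8.91% were called between slides. With the slide as a block, the change between genotypes was 0.81 (SE 0.14, limma adjusted p = 0.000243), a fold of 1.75. Within slide 1 it was 0.77 (adjusted p = 0.0112) and within slide 2 it was 0.86 (adjusted p = 0.0388).

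The dimmer Sox2 probe (ILMN_2656102) did not show that shift. Its slide difference was -0.080 (limma adjusted p = 0.839). It ranged from 8.28 to 8.79 in mutants (median 8.53) and from 6.95 to 8.42 in controls (median 7.68), and 5 of the 6 mutants lay above every control. The exception was mutant 5, at 8.28, which lay below control 10, at 8.42, and above the other 9 controls. Mutants averaged 8.54 ± 0.18 (SD, n = 6) against 7.69 ± 0.40 (SD, n = 10) for controls, a change of 0.85 (SE 0.16, limma adjusted p = 0.000612). Within slide 1 the change was 0.92 (adjusted p = 0.00173). Within slide 2 it was 0.72 and missed the threshold (adjusted p = 0.201). Without control 10 it was 0.94.

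With the slide as a block the 2 probes gave nearly the same change, 0.81 and 0.83. Sample by sample they did not rank the glands alike. Control 8 was the highest control by the brighter probe, at 9.67, and the lowest by the dimmer one, at 6.95. The platform annotation gives both probes the same Sox2 transcript, and what sets them apart was not tested.

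**Figure D2:**
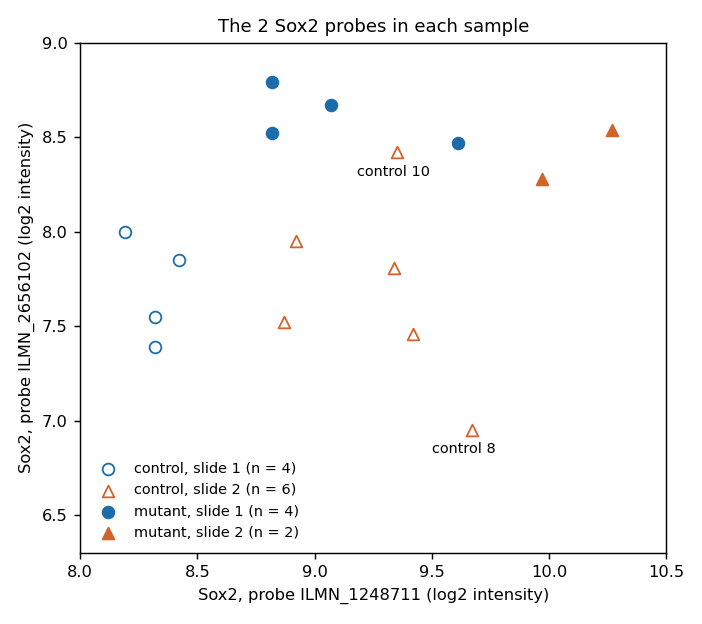
Level of the brighter Sox2 probe (horizontal axis) against the dimmer one (vertical axis) in each sample, both as log2 intensity; open symbols are controls, filled symbols mutants, circles slide 1 and triangles slide 2. Mutants lie above controls along the vertical axis except for control 10, while slide 2 lies to the right of slide 1 within each genotype, and control 8 is at 9.67 and 6.95.

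Sox9 rose by a smaller amount. Its probe (ILMN_3007428) ranged from 8.63 to 9.18 in mutants (median 8.85) and from 8.21 to 8.68 in controls (median 8.35). Of the 6 mutants, 5 lay above every control, and mutant 3, at 8.63, lay below controls 8 and 10, at 8.68 and 8.66. The means were 8.89 ± 0.19 (SD, n = 6) and 8.39 ± 0.18 (SD, n = 10), a change of 0.50 (SE 0.096, limma adjusted p = 0.000688). Within slide 1 the change was 0.54 (adjusted p = 0.0163). Within slide 2 it was 0.52 and missed the threshold (adjusted p = 0.0714). It was 0.53 with the slide as a block and also 0.53 without control 10.

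Sox4, of group C, was dim and variable. Its probe (ILMN_2893417) was above background on all 6 mutant arrays and 9 of 10 control arrays. It ranged from 5.57 to 6.86 in mutants (median 6.12) and from 5.34 to 6.50 in controls (median 5.84), and the groups overlapped, with 2 mutants above every control. The change was 0.34 (SE 0.20, limma adjusted p = 0.212), with a 95% interval from -0.066 to 0.75. The change was 0.38 on slide 1 and 0.11 on slide 2, and neither was called.

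Sox3 was above background on 0 of 16 arrays. Its probe (ILMN_2976077) had raw signals from 66.6 to 85.7 and read 4.43 to 4.66 in mutants and 4.40 to 4.86 in controls. No difference was detectable at that signal, and no fold is given.

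By the brighter probe of each gene, 2 of the 4 Sox members tested were called higher, Sox21 and Sox9. By probe the count was 3 of 5 higher and 0 lower, against 14.9% of all probes called higher and 27.8% called in either direction. Sox21 and Sox9 were called in all 16 fits that left out 1 sample, and so was Sox2 by its dimmer probe. An interaction test called no difference in change between the slides for the 5 tested Sox probes (limma adjusted p = 0.999 for each). It called 0 of 13813 probes. Its SE for the Sox probes was 0.20 to 0.39 and slide 2 held 2 mutants, so it cannot decide whether the changes differed.

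**Figure D3:**
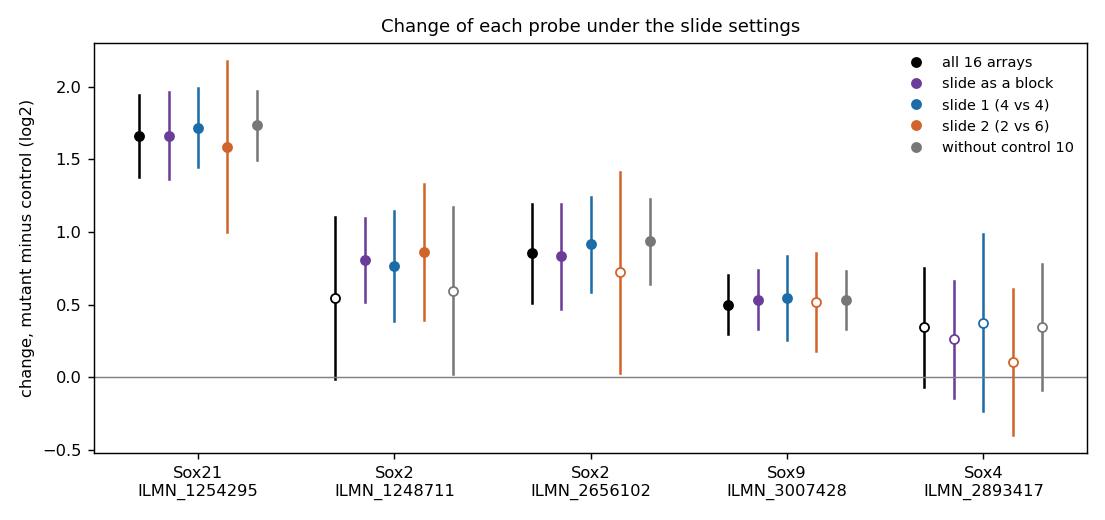
Change between genotypes (log2, mutant minus control, vertical axis) of each tested Sox probe with its 95% interval, over all arrays, with the slide as a block, within each slide and without control 10; filled symbols have an adjusted p under 0.05. The brighter Sox2 probe moves from 0.54 to 0.81 once the slide is a block, while Sox21 stays between 1.59 and 1.73.

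The genes whose profiles lay nearest to each called member were found by the root mean square difference over the 16 samples, each gene centred on its control mean. Nearest to Sox21 were Pkp1, a plakophilin of desmosomes (0.18 log2 units), Pdlim3, a protein of the muscle Z-disc (0.25), and Myod1, the myogenic factor, for which no distance is given because its control levels were not above background. The median distance of all genes from Sox21 was 1.05. Pkp1 rose by 1.53 and Pdlim3 by 1.86, whereas Myod1 was not well above background in any control and stood at least 1.47-fold higher in mutants. It passed the filter only through the mutants. Sox21 and all 3 of these had control 10 as their highest control: Pkp1 read 7.20 in it against at most 6.42 in the others, and Pdlim3 10.37 against at most 9.47. Nearest to Sox2 by its dimmer probe were Ddc, the enzyme that makes dopamine and serotonin (0.21), Dnah11 (0.22), and Pld2, a phospholipase (0.23). Dnah11, a dynein of motile cilia, was above background in 4 of 10 controls and passed the filter through the mutants. Its fitted change depended on the background step (0.90, and 0.45 with none). Nearest to Sox9 were Nck2, an adaptor protein (0.089), Zfp521, a zinc finger factor of immature cells (0.11), and Hes6, a factor that counteracts Hes repressors (0.12). These distances describe the arrays and share the genotype difference with every called gene.

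Among the other Sox genes 12 had a probe, 7 were tested, and 2 were called higher, Sox5 and Sox8, with 0 lower. That is 28.6% against 15.9% of all genes. Sox5, of group D and a partner of Sox9 in cartilage, ran from 10.30 to 11.03 among mutants and 9.60 to 10.05 among controls, without overlap, a change of 0.76 (SE 0.10, limma adjusted p = 1.67e-05). A second Sox5 probe was called too (0.61, adjusted p = 0.00210) and another was not (0.39, adjusted p = 0.126). Sox8, the group E relative of Sox9, ran from 6.13 to 6.45 among mutants and 4.63 to 6.04 among controls, also without overlap, a change of 0.67 (SE 0.15, limma adjusted p = 0.00307). Mutants all above controls, as for Sox5 and Sox8, was seen for 3.94% of all genes tested. Sox8 was dim, above background on all 6 mutant arrays and 8 of 10 control arrays. The Sox8 change was 0.35 with no background correction and 0.43 with an offset of 50, still called, and within slide 2 alone it missed the threshold (adjusted p = 0.152).

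The remaining tested relatives were not called. The group F genes of endothelial cells, Sox7, Sox17 and Sox18, changed by 0.20, 0.23 and 0.17 (adjusted p from 0.238 to 0.377). Sox12, of group C, changed by 0.12 and Sox13, of group D, by 0.075. Sox1, Sox6, Sox15, Sox30 and Sry did not pass the detection filter. Without control 10, again 2 were higher.

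Other markers of pituitary progenitors were a mix of rises, 1 fall and genes not called. Of 25 listed, 15 were tested, 3 were called higher and 1 lower, with a median change of 0.12; 20.0% higher compares with 15.9% of all genes. Yap1, the Hippo pathway effector, ran from 9.50 to 10.21 among mutants and 8.78 to 9.75 among controls, a change of 0.90 (SE 0.14, limma adjusted p = 7.15e-05). S100a6, a calcium-binding protein, rose by 0.71 (SE 0.10, adjusted p = 4.18e-05) and Aldh1a2, which makes retinoic acid, by 0.54 (SE 0.11, adjusted p = 0.000835). The gene that fell was Prrx1, named after its value was seen (-0.43, adjusted p = 0.0221), and its call was lost without mutant 1 or mutant 3, or within either slide. Aldh1a2 missed the threshold within slide 2. Nes, an intermediate filament of progenitors, changed by -0.034 (adjusted p = 0.877) and Cdh1, the epithelial cadherin of the cleft, by 0.32 (adjusted p = 0.0702). Without control 10 the counts were again 3 and 1.

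Genes known from other tissues as targets of these factors were mostly below the detection filter for groups B1 and E. For all of these lists the share over all genes was 15.9% higher and 14.0% lower. Of 12 listed targets of group B1, 2 were tested and 1 rose, Notch1 (0.40, adjusted p = 0.00615), which missed the threshold within each slide alone (adjusted p = 0.106 on slide 1 and 0.0552 on slide 2). The other tested B1 target was Nes, counted above among the progenitor markers. Of 6 listed targets of group C, 5 were tested, with 1 higher (20%) and 1 lower, near the shares over all genes. Map2 and Dcx are also on the neuronal list used below. Tead2, a partner of Yap, rose by 0.69 (SE 0.088, adjusted p = 1.10e-05), Prox1, a homeobox factor, fell by 0.68 (SE 0.12, adjusted p = 0.000222), and Map2, a neuronal microtubule protein, changed by -0.24 (adjusted p = 0.0935) and was called lower once the slide was a block (-0.32, adjusted p = 0.0101). Without control 10 the group C list had 2 lower, Map2 being called there too (adjusted p = 0.0496). Of 12 cartilage genes that Sox9 controls there, 10 were below the detection filter, Acan and Matn1 among them. Col2a1, the collagen of cartilage, was called (0.81, SE 0.16, adjusted p = 0.00108), and Col9a2 changed by 0.20 (adjusted p = 0.233). Within slide 2 alone neither Col2a1 (adjusted p = 0.124) nor Prox1 passed.

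Markers of other cells that can hold Sox factors were measured in the same samples. Among pituicyte and glial markers 2 of 6 tested rose and 0 fell, against 15.9% higher and 14.0% lower over all genes. The defining genes Rax and Nkx2-1 were above background on every array and changed by 0.0049 and 0.13 (adjusted p = 0.987 and 0.690), and Gfap was above background on none. Aqp4, a water channel of glia, rose by 1.17 (SE 0.16, adjusted p = 2.51e-05) and Slc1a3, a glutamate transporter, by 0.34 (adjusted p = 0.00635), while Glul changed by -0.37 (adjusted p = 0.217). The Slc1a3 call was lost within each slide (adjusted p = 0.0531 and 0.269). The summed linear intensity of these 6 genes lay between 3197 and 5407 in mutants and between 2856 and 3935 in controls, with control 10 the highest control. Of the Schwann cell list 2 of 8 were tested, with Mbp lower (-0.32, adjusted p = 0.0165), a call lost within each slide (adjusted p = 0.0760 and 0.0802).

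Larger shifts ran beside the Sox factors, set against 15.9% higher and 14.0% lower over all genes. All 9 skeletal muscle genes tested rose. Of these, 5 (Myod1, Myog, Tnnc2, Actc1 and Myh8) were above background in at most 3 controls and passed the filter through the mutants, which fixes that part of the count, and 3 more fell below the filter. The summed intensity of the 9 lay between 14866 and 22219 in mutants and between 1044 and 1325 in 9 controls, and was 10843 in control 10. Of 6 epithelial genes tested 5 rose and 1 fell. Trp63, a factor of stratified epithelium, was above background in all 6 mutants and 2 of 10 controls, so the filter passed it through the mutants and its fitted change depended on the background step (2.94, and 1.88 with none). Krt14, a basal keratin, fell by 1.27 (SE 0.20). Of 5 macrophage genes 4 rose, but within slide 2 alone Tyrobp, Aif1 and C1qb missed the threshold (adjusted p = 0.0948, 0.254 and 0.142), as C1qb did within slide 1 (adjusted p = 0.147). None of 10 endothelial, 7 mesenchymal and 4 erythroid genes was called over all arrays. The mesenchymal Col1a2 was called once the slide was a block (0.67, adjusted p = 0.0218). The endothelial Tie1 was called higher without control 10 (0.29, adjusted p = 0.0313), and also without mutant 1 or mutant 3. The erythroid Alas2 was called higher within slide 2 (0.58, adjusted p = 0.0460). The endothelial genes include Sox7, Sox17 and Sox18, already counted among the other Sox genes, and the defining endothelial gene Kdr was above background on no array. Of 7 neuronal genes 3 fell (Ina, Gap43 and Elavl4) and 0 rose. The Elavl4 call was lost within slide 1 (adjusted p = 0.406) and with a replicate block (adjusted p = 0.0738). Ina, above background in 3 of 6 mutants, lost its call within slide 2 (adjusted p = 0.269). The defining neuronal gene Nefl was above background on no array. The part of these cell types in the Sox changes was not tested.

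**Figure D4:**
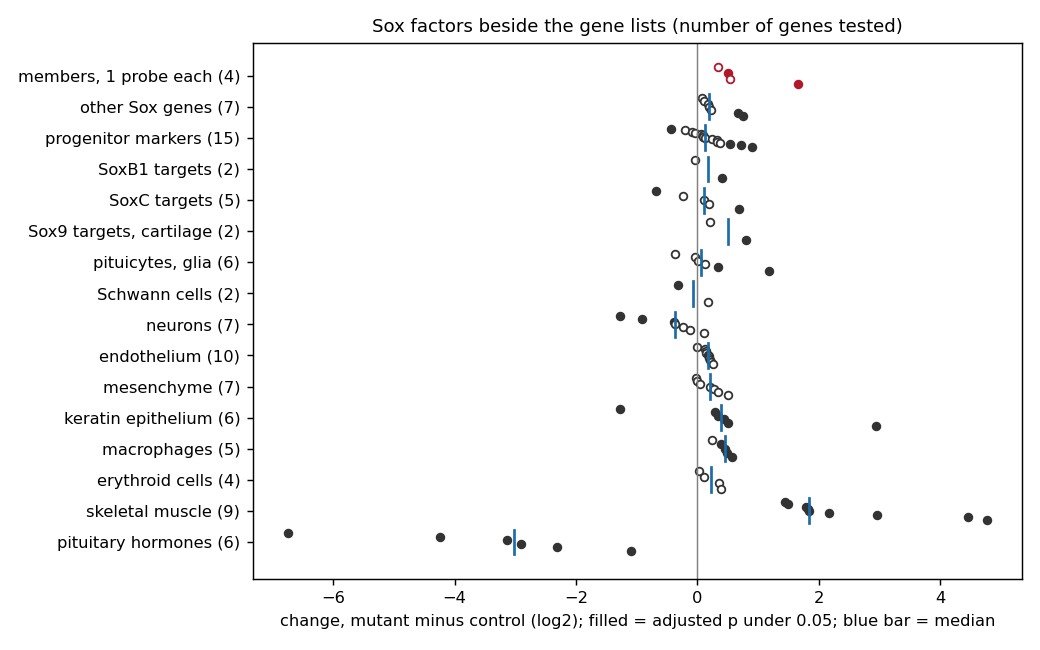
Change between genotypes (log2, mutant minus control, horizontal axis) of the 4 tested Sox members, by their brighter probe, and of each tested gene in the other lists; filled points have an adjusted p under 0.05 and blue bars are list medians. Sox21 at 1.66 lies to the right of every other Sox gene, and muscle genes and hormones hold the largest rises and falls; Myod1 (muscle) and Lhb (hormones) are drawn at fitted values although 1 group of each was not above background.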

How the data were processed

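Signal intensity and a detection p-value per probe were deposited for 16 arrays, per the file headers (AVG_Signal, Detection Pval). GenomeStudio appears among the tools, per the submitters' processing notes, its version not given in the sources used here. The deposited raw intensities were not normalised, as read from the values (array medians 96.45 to 131.6). The authors' series matrix holds intensities below 0 with nearly equal medians, read as background-subtracted and quantile-normalised, and served as an alternative (log2, values under 16 set to 16).

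In R 4.3.3 with limma 3.58.1 and data.table (version 1.17.8), background was corrected by nec (offset 16), arrays were quantile-normalised and log2 taken. The filter kept 13813 probes, those detected (p under 0.01) on at least 6 arrays. Mutants and controls, grouped by sample title, were compared in limma (lmFit, eBayes), adjusting p-values by Benjamini-Hochberg across all probes kept. Every adjusted p is two-sided and from limma. The probe with the highest mean stood for a gene. Of 23978 probes with 1 symbol (0 with several, 1719 unnamed here), 23962 matched RefSeq (GRCm38.p6) by Entrez identifier.

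The Sox genes and the 15 gene lists were chosen with earlier results of these data known. Named by rule were all member probes, every other tested Sox gene, Insm1, the 3 list members with the smallest adjusted p, defining markers and the 3 nearest profiles; further examples were named after their values were seen. A gene dark in 1 group is given as "at least" a fold over the lowest detected signal of each dim array. Alternatives covered slide, background, scaling, filter, variance model, array weights, sex, replicate number and single samples; the interaction test was added after the data had been seen. The fit was tested on data made with known changes.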

Additional observations from a re-analysis of the deposited data

Results flagged for a closer look

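In 10 tests for a single sample standing apart (5 Sox probes, each in mutants and in controls), 0 passed Dixon's critical value. The nearest in the controls was Sox4 in control 4, at 6.50, with a gap to its neighbour of 0.384 of the range against a critical value of 0.466.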

How the results depend on the processing

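Sox21 was called under all 14 alternative settings (1.11 to 1.95), and leaving out 1 sample at a time gave 1.60 to 1.73. Sox9 (0.44 to 0.59) and the dimmer Sox2 probe (0.70 to 0.92) were called under 13 of 14, losing the call on slide 2 alone, which holds 2 mutants (0.52 and 0.72); leaving out 1 sample gave 0.44 to 0.55 and 0.77 to 0.94. The brighter Sox2 probe was called with the slide as a block (0.81), on slide 1 (0.77), on slide 2 (0.86) and with a replicate block (0.84), and the other Sox2 probe gave 0.85; leaving out 1 sample gave 0.38 to 0.67, never called. Sox4 was called under none (0.11 to 0.45, and 0.21 to 0.47 without 1 sample).

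Same-numbered samples deviated together, with a correlation over 0.1, in 5 of 6 pairs (0.124 to 0.468), and the pair numbered 3 gave 0.0172. Of the 6 mutants, 5 correlated best with their own number. That is a hint from the data and not the design, since numbers also follow the slides. With the replicate block 1562 genes were higher and 1409 lower, 5 progenitor markers were higher and 2 group C targets lower (Map2 at -0.34), Col1a2 was called (0.79), and the brighter Sox2 probe alone among the Sox probes changed its call.

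Fewer samples lowered the counts: 813 genes higher on slide 1, and 268 higher and 479 lower on slide 2, where the other Sox genes gave 1 higher and the targets of B1 and of Sox9 each 0 higher. Progenitor markers had 0 lower on either slide and group C targets 0 lower on slide 2. With the slide as a block, group C had 2 lower. Probes detected on all 16 arrays left 1 other Sox gene higher, Sox8 not being among them. Leaving out 1 sample gave 0 to 1 progenitor markers and 1 to 2 group C targets lower. Without mutant 1 or mutant 3, 0 progenitor markers were lower.

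Nes turned positive with the slide as a block (0.050), on slide 2 (0.23), with the Y-linked covariate (0.017) and with the replicate block (0.074), and ran from -0.16 to 0.065 without 1 sample. Sox18 was -0.052 and Alas2, an erythroid gene, -0.0078 on slide 1; Alas2 was -0.0043 with array weights and -0.073 to 0.22 without 1 sample. Lum, a mesenchymal gene, was -0.024 on slide 2. None of these was called in the fits given here for it, although Alas2 was called higher on slide 2 (0.58, limma adjusted p = 0.0460). Over 55 other named genes, 23 single results lost and 9 gained a call, and the cause was not tested. Sox3 and the other Sox21 probes lacked signal over background, which limits what is shown of them.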
